A study of Mus musculus with 18 samples.

Results

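The comparison of IL-4 with apoptotic cells (IL-4 + ACs) against apoptotic cells alone (ACs) was examined in mouse eosinophils. It rests on 6 of the 18 libraries of the series, the 3 libraries of IL-4 + ACs and the 3 ACs libraries of the same experiment. The transcripts examined were all those with a mean normalised read count of at least 10 over these 6 libraries, which were 10669 of the 54446 genes in the table. All groups were eosinophils of C57BL/6 background, taken from the peritoneal cavity of Il5Tg mice (line NJ.1638), in which a transgene makes T cells produce IL-5 and fills the blood and tissues with eosinophils. Every culture, controls included, held apoptotic cells, which were thymocytes of wild-type mice aged 4 to 6 weeks, killed by dexamethasone over 6 h, at 5 apoptotic cells per eosinophil for 18 h. After culture, beads against Siglec-F were used to recover the eosinophils for RNA. The dose of IL-4 and the age of the mice that gave the eosinophils are not given in the sources used here. The methods call replicates biological, and a legend on other plots of these cultures gives each lane its own mouse, but the labels of the 6 libraries name no mouse, so p-values measure the spread between these libraries, which may in part be technical. For comparison, IFN-γ with apoptotic cells (IFN-γ + ACs, 3 libraries) was set against the 3 ACs libraries of its own experiment.

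IL-4 is a cytokine of T helper 2 cells, mast cells, basophils and eosinophils themselves. It binds IL-4Rα paired with the common γ chain (Il2rg) or with IL-13Rα1, and Janus kinases then phosphorylate STAT6, which enters the nucleus and binds DNA. In macrophages this program is called alternative activation and is known by arginase 1, resistin-like molecule α (Retnla), chitinase-like proteins, C-type lectins and CCL17, CCL22 and CCL24. Eosinophils exposed to IL-4 are termed Type 2 eosinophils, in contrast to the Type 1 eosinophils formed by IFN-γ.

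Replicates 1 and 2 were sequenced deeply, with 7023455 and 7782072 reads counted on genes in IL-4 + ACs and 5303906 and 5294244 in ACs. Replicate 3 was shallow in both groups, with 849705 and 779421 reads, and in these libraries 3 reads stand for normalised read counts of 15.4 and 16.1. The median absolute log2 difference between replicates 1 and 2 was 0.157 in IL-4 + ACs and 0.222 in ACs, whereas differences involving replicate 3 had medians of 0.394 to 0.435. The ACs library of replicate 3 also held 61265 normalised reads of Actb (β-actin), against 15063 to 19014 in the other libraries. Eosinophil markers were present in both groups, with Siglecf, the receptor used for purification, at 2310.5, 2577 and 2251 in IL-4 + ACs and 2715, 2687 and 2472 in ACs (replicates 1, 2 and 3, the order used throughout). The 15 eosinophil markers summed to 27761 to 30619 in IL-4 + ACs and 25016 to 27588 in ACs. Macrophage transcripts were present too. Summed over 15 markers, they ranged from 21850 to 37208 in IL-4 + ACs and from 28128 to 42039 in ACs. In ACs the macrophage range lay above the eosinophil range, and in IL-4 + ACs the 2 ranges overlapped. The 18 thymocyte markers summed to 121 to 164 and 96.5 to 151, the 11 neutrophil markers to 3888 to 4292 and 3951 to 5053, of which most was Retnlg, and the 6 NK cell markers to at most 4.74. Over B cell, mast cell, basophil, erythroid and mesothelial or fibroblast markers the summed ranges of the groups overlapped, with sums of at most 1142. The 6 platelet markers, mostly Pf4 and Itga2b, summed to 3751 to 5238 and 2848 to 3130, and the 11 dendritic cell markers, mostly class II genes, to 5123 to 7278 and 4900 to 5574. The share of reads on mitochondrial genes was 5.35% to 5.67% with IL-4 and 4.17% to 6.72% without. In such bulk libraries, fewer cells of a type and less RNA per cell cannot be told apart.

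IL-4 changed 116 transcripts, 79 of which rose and 37 of which fell (adjusted p under 0.05 by limma and a change of at least 1.5-fold). That is 0.74% and 0.347% of the transcripts tested. The largest rises included the lectin Cd209e, the chemokine Ccl8, the chitinase-like Chil4 and the RNA helicase Ddx4, and the largest falls included lipocalin 2 (Lcn2), the scavenger receptor Marco and the formyl peptide receptors Fpr1 and Fpr2. Log2 fold changes, on the scale of log2(normalised read count + 1), ran from 0.65 to 6.65 among the transcripts that rose, with a median of 1.5, and from -3.09 to -0.78 among those that fell, with a median of -1.67. The median over all transcripts tested was -0.01. In all 116 the ranges of the 2 groups were apart, against 8.45% of all transcripts tested with IL-4 + ACs above and 8.84% below. This adds no support to the calls, since the 116 were chosen by their p-values in the same 6 libraries. Among the 79 transcripts that rose, most of the increase lay in few. Retnla, Chil3 and Srgn made up 72.5% of the increase in normalised read counts summed over the 79.

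All 116 transcripts were also past the threshold by edgeR and by DESeq2 on the recovered reads and when both shallow libraries were left out. The latter fit of 4 libraries called 3.25% of transcripts higher and 2.93% lower. Of all 10669 transcripts, edgeR called 127 higher and 85 lower, DESeq2 128 and 81, and limma with array weights 389 and 356. Counts within a list by these fits are to be read against these totals. With a single library left out, the counts of transcripts higher and lower were 31 and 16 without IL-4 + ACs replicate 1, 39 and 18 without replicate 2 and 54 and 51 without replicate 3. Without ACs replicates 1, 2 and 3 they were 42 and 20, 45 and 16, and 95 and 35. Of the 79 transcripts that rose, 29 were past the threshold in all 6 of these fits, as were 14 of the 37 that fell. In what follows a library left out is given by group and replicate number, such as ACs 3, and the direction of every one of the 116 changes was kept.

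**Figure D1:**
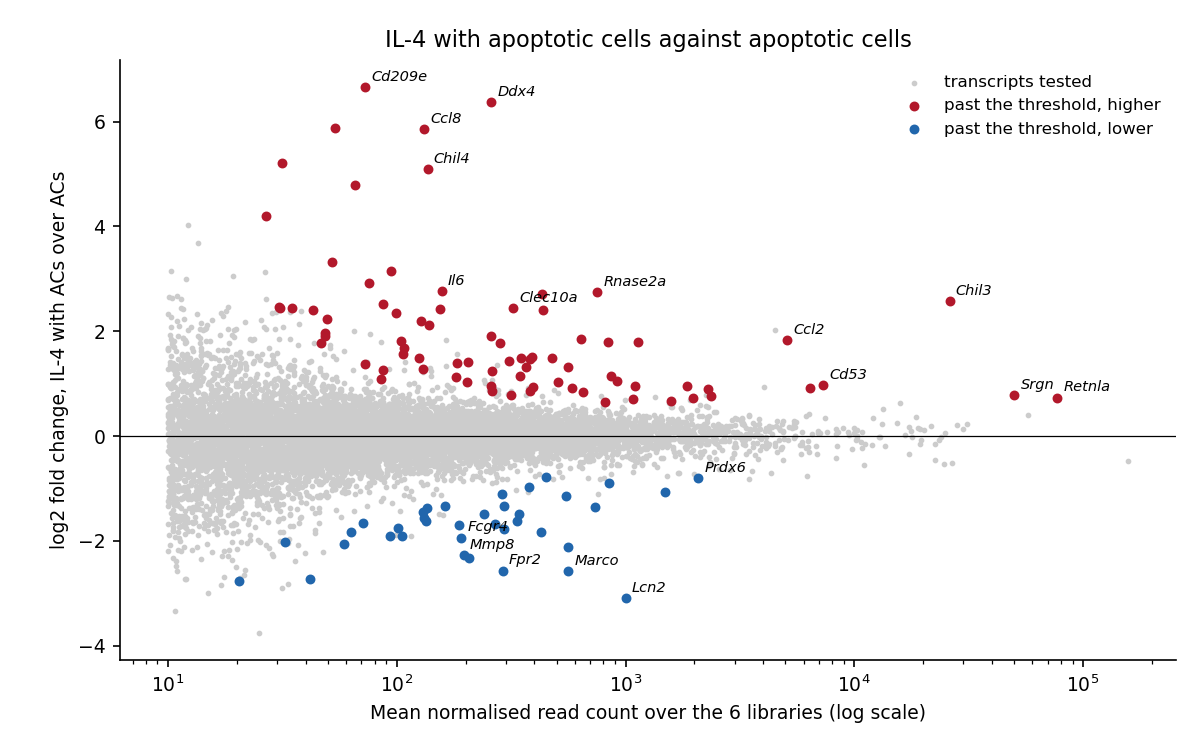
Log2 fold change of IL-4 + ACs over ACs (vertical axis) against the mean normalised read count over the 6 libraries (horizontal axis, log scale), with 1 point for each of the 10669 transcripts tested. The 79 red points rose and the 37 blue points fell, and Retnla, Srgn and Chil3 lie far to the right of the other red points.

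The receptors and kinases that carry the IL-4 signal did not pass by limma on the 6 libraries, whereas the inhibitors Cish and Socs2 rose. Of 14 tested members of the IL-4 and IL-13 receptor and JAK-STAT list, 2 rose and none fell by limma, with 1 lower by edgeR and none by DESeq2, and the median log2 fold change was 0.05. Il4ra, the ligand-binding chain, was at 383, 427 and 432 in IL-4 + ACs and 411, 515 and 450.4 in ACs, and these ranges overlapped (log2 fold change -0.14 ± 0.15 (SE), adjusted p = 0.782). Il2rg lay above the controls in all libraries, at 876, 887 and 1085 in IL-4 + ACs and 618, 697 and 627 in ACs, but did not pass (adjusted p = 0.156). Stat6, the transcription factor itself, was at 543, 586 and 637 in IL-4 + ACs and 756, 889 and 777 in ACs, so that all IL-4 libraries were lower, again without passing (adjusted p = 0.281). Jak3, which binds the common γ chain, was at 20.9, 29.5 and 36.0 in IL-4 + ACs and 64.7, 62.3 and 64.3 in ACs (adjusted p = 0.17), and it was past the threshold in the 4 deep libraries (log2 fold change -1.32). Cish, a suppressor of cytokine signalling that STAT factors induce, rose from 347, 354 and 300.2 in ACs to 658, 717 and 668 in IL-4 + ACs (log2 fold change 1.03 ± 0.14, adjusted p = 0.00628). Socs2, a related inhibitor, was at 1382, 1269.9 and 1049 in IL-4 + ACs and 688, 473 and 643 in ACs (log2 fold change 1.04 ± 0.17, adjusted p = 0.0203). The groups were well apart for Cish and Socs2, whereas Socs1 and Socs3 did not pass. With 1 library left out at a time, Cish passed throughout. Socs2 did not pass without IL-4 + ACs 1 or 2 or ACs 2 (adjusted p up to 0.105).

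Retnla and Chil3 rose from levels that were already high in ACs, and Chil4 rose from a low one. Retnla encodes RELMα, a secreted protein of Type 2 inflammation and repair. It was at 90702, 96789.9 and 101282 in IL-4 + ACs and 54172, 57583 and 62246 in ACs (log2 fold change 0.73 ± 0.12, adjusted p = 0.02). Retnla took 2.23% to 2.36% of all reads counted on genes with IL-4 and 1.36% to 1.49% without, and no library of one group reached the other. The other resistin-like transcript tested, Retnlg, was at 3716, 3626 and 4061 in IL-4 + ACs and 4666, 3917 and 3404 in ACs and overlapped. Chil3 (Ym1), a chitinase-like lectin that forms crystals in Type 2 airway disease, rose more steeply. Its levels were 40128, 34705 and 59274 in IL-4 + ACs and 5825, 7175 and 9431 in ACs (log2 fold change 2.57 ± 0.22, adjusted p = 0.000433). Chil4 (Ym2), its neighbour and near copy on chromosome 3, was close to the detection limit in ACs and clearly detected with IL-4, at 217, 203 and 375 in IL-4 + ACs and 9.78, 2.34 and 10.7 in ACs (log2 fold change 5.09 ± 0.49, adjusted p = 0.000791). The third member tested, Chil5, was at 79.4, 74.8 and 20.6 in IL-4 + ACs and 9.02, 4.67 and 16.1 in ACs and did not pass by limma on the 6 libraries (adjusted p = 0.173). By edgeR, by DESeq2, with array weights and in the 4 deep libraries, all 3 tested members, Chil5 included, were past the threshold and higher. Chia1 had no reads in the 6 libraries. Chil3 and Chil4 share much of their sequence, and reads that fit both were not counted or may have gone to the wrong gene, so the level of Chil4 is uncertain to that extent. In the 6 fits of 5 libraries, Chil3 and Chil4 passed throughout. Retnla passed only without ACs 3 (adjusted p otherwise up to 0.107).

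The promoters of 7 transcripts that rose are shown because STAT factors bind the palindrome TTC and GAA separated by a short spacer, STAT6 preferring a spacer of 4 bases over the 3 bases used by other STATs. The 7 were picked by name and each holds a match, so they do not stand for the transcripts that rose. Each sequence runs 5′ to 3′ on the strand of the gene, from 250 bases before to 50 bases after its start in RefSeq (GRCm38.p6), and the capitals mark each match to TTCNNNNGAA or TTCNNNGAA.
Retnla, chr16:48842359-48842658, plus strand: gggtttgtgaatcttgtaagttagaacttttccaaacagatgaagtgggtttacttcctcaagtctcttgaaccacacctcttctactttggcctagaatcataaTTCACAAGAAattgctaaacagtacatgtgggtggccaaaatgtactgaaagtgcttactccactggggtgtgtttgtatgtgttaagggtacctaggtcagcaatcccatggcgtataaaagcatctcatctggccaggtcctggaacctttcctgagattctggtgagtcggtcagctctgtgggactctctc
Pdcd1lg2, chr19:29410669-29410968, plus strand: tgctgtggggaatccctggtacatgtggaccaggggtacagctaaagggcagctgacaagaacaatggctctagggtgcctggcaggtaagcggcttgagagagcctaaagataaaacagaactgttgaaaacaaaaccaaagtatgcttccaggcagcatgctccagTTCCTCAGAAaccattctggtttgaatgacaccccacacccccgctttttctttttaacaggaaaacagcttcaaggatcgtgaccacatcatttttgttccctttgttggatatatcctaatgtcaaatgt
Slamf1, chr1:171766882-171767181, plus strand: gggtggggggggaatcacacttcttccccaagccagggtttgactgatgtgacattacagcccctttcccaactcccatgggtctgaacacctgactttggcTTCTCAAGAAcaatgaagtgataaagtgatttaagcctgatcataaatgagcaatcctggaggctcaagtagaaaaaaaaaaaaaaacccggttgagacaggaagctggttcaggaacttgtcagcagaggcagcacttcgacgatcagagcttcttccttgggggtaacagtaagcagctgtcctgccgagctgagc
Cd209e, chr8:3854237-3854536, minus strand: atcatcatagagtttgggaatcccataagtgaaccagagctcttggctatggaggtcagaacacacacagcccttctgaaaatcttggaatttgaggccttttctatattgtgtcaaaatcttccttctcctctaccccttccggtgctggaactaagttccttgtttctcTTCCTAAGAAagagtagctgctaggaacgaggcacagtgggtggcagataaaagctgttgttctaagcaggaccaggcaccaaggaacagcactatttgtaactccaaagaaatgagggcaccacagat
Chil3, chr3:106167515-106167814, minus strand: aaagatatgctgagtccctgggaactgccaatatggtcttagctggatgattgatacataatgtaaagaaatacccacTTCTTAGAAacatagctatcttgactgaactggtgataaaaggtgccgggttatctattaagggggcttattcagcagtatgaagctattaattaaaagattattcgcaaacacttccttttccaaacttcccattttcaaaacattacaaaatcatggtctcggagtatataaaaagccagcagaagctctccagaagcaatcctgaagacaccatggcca
Chil4, chr3:106219430-106219729, minus strand: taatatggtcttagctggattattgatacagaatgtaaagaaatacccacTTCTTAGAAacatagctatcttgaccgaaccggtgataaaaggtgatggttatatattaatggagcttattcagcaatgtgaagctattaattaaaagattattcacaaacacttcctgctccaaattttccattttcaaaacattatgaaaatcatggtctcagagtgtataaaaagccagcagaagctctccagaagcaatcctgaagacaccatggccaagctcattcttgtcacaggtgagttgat
Cish, chr9:107296409-107296708, plus strand: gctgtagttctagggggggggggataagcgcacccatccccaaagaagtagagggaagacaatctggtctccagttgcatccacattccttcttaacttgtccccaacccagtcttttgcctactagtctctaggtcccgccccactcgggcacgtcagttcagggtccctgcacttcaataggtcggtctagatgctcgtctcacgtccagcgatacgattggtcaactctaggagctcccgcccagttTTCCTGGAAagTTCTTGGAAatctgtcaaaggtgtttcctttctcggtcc

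Both patterns are their own reverse complement, so that reading 1 strand covers both, and no promoter shown holds both spacings. TTCNNNNGAA begins 145 bases before the start of Retnla, 82 bases before that of Pdcd1lg2, 148 bases before that of Slamf1 and 79 bases before that of Cd209e. TTCNNNGAA begins 172 bases before the start of Chil3 and 200 bases before that of Chil4, and Cish holds 2 copies, at the start base and 11 bases after it. Aligned without gaps, the Chil3 and Chil4 promoters were identical at 200 of 272 bases (73.5%). RefSeq promoters were matched for 63 of the 79 transcripts that rose and 31 of the 37 that fell. TTCNNNNGAA was found for 11 of the 63 (17.5%) and for 4 of the 31 (12.9%), while 8.01% of the 27025 genes and 6.95% of the 32851 promoters in the table hold it. TTCNNNGAA was found for 8 of the 63 (12.7%) and for 2 of the 31 (6.45%), against 9.55% of genes and 8.3% of promoters. These are matches of letters in a window of 300 bases, and binding was not measured. The shares given for comparison cover all genes with a promoter, not only the transcripts tested.

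Some C-type lectins that mark alternatively activated macrophages and dendritic cells rose. Of the 7 tested members of the CD209, MGL and mannose receptor list, 4 rose and none fell by limma (6 and 0 by edgeR and by DESeq2), with a median log2 fold change of 2.44. Clec10a (MGL1), a receptor for galactose and N-acetylgalactosamine, was at 533, 512 and 591 in IL-4 + ACs and 85.7, 96.5 and 118 in ACs (log2 fold change 2.44 ± 0.18, adjusted p = 0.000203). The adjacent gene Mgl2 was at 176, 157 and 159 in IL-4 + ACs and 54.9, 61.5 and 37.5 in ACs (log2 fold change 1.68 ± 0.24, adjusted p = 0.00876). Mrc1, the mannose receptor CD206, was at 186, 160.2 and 144 in IL-4 + ACs and 46.6, 38.1 and 53.6 in ACs (log2 fold change 1.81 ± 0.23, adjusted p = 0.0047). All 3 were detected in ACs, and each of them lay about a factor of 3 or more higher with IL-4. Cd209e, a mouse relative of the pathogen receptor DC-SIGN, was nearly absent from ACs. It had 2 reads over the ACs libraries and 451 over those with IL-4, at 148, 81.7 and 206 in IL-4 + ACs and 1.5, 0 and 0 in ACs. The ratio of reads, corrected for depth, was 165 (95% exact interval 45.5 to 1370, for counting error only), and limma gave an adjusted p of 0.000791. Cd209a, at 32.4, 23.7 and 20.6 in IL-4 + ACs and 0.75, 3.89 and 0 in ACs, also lay above ACs in all libraries but did not pass (adjusted p = 0.148). Cd209d, at 13.9, 16.9 and 41.1 in IL-4 + ACs and 0, 1.56 and 0 in ACs, was similarly placed (adjusted p = 0.18), while Cd209f, at 18.5, 19.5 and 5.14 in IL-4 + ACs and 14.3, 21.8 and 16.1 in ACs, overlapped. Because CD209 genes are similar in sequence, reads of Cd209a, Cd209d, Cd209e and Cd209f may not be fully separated. Over the fits without 1 library, Clec10a, Mrc1 and Cd209e passed throughout. Mgl2 did not pass without IL-4 + ACs 1 (adjusted p = 0.0602).

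Among the Dectin and Clec4 lectins, changes went both ways. Of 9 tested, 2 rose and 2 fell, and the median was -0.37. Clec7a (Dectin-1), the receptor for fungal β-glucan, was at 364, 419.9 and 499 in IL-4 + ACs and 93.2, 92.6 and 219.8 in ACs (log2 fold change 1.77 ± 0.31, adjusted p = 0.0277). Clec4a2, an inhibitory receptor also called DCIR, rose to 492, 571 and 499 from 279, 227 and 139 (log2 fold change 1.32 ± 0.24, adjusted p = 0.0298). Clec4d, a sensor of mycobacterial and fungal glycolipids, fell to 190.0, 194 and 247 from 751, 1043 and 944 (log2 fold change -2.11 ± 0.18, adjusted p = 0.000396). Clec4a1 was at 62.0, 57.4 and 113 in IL-4 + ACs and 180.5, 201 and 198 in ACs (log2 fold change -1.37 ± 0.27, adjusted p = 0.0422). Clec4a1, Clec4a2 and Clec4d are neighbours on chromosome 6, and Clec4a2 moved against the other two. Clec4n (Dectin-2) was at 65.5, 42.1 and 159 in IL-4 + ACs and 172, 179 and 338 in ACs and did not pass (adjusted p = 0.261). Leaving out single libraries, Clec4d passed throughout. Clec7a passed only without ACs 3 (adjusted p otherwise up to 0.132), Clec4a2 passed only without ACs 1 or 3 (adjusted p otherwise up to 0.0987) and Clec4a1 passed only without IL-4 + ACs 3 (adjusted p otherwise up to 0.192).

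**Figure D2:**
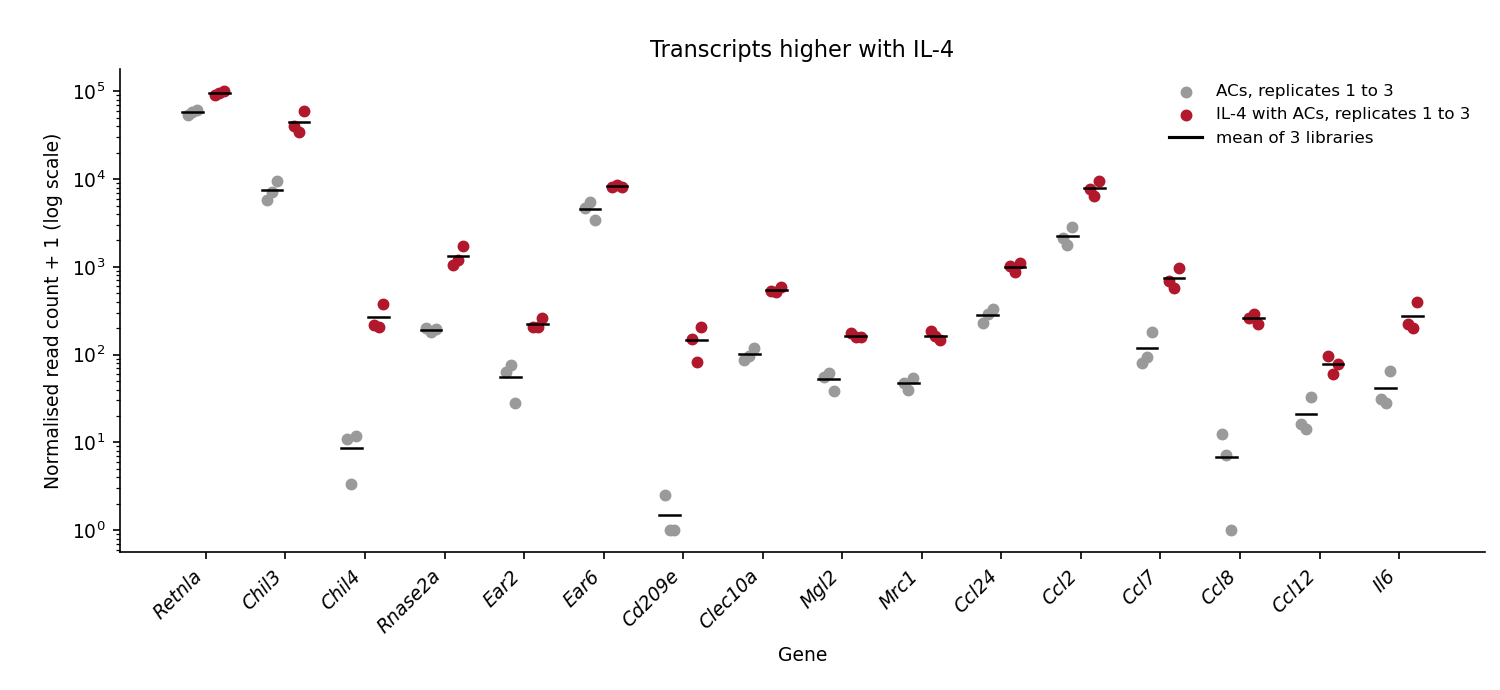
Normalised read counts plus 1 (log scale) of 16 transcripts that rose, in the 3 ACs libraries (grey) and the 3 IL-4 + ACs libraries (red), with the mean of each group as a bar. In each transcript the 3 red points lie above the 3 grey points, from a small step for Retnla (log2 fold change 0.73) to Cd209e, whose grey points lie at or near 0 reads.

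The eosinophil ribonucleases Rnase2a, Ear2 and Ear6 rose, while Ear1 and the main granule proteins did not pass. Of 7 tested members of the granule list, 3 rose and none fell by limma, edgeR and DESeq2, with a median of 0.44. Rnase2a (Ear11), an eosinophil-associated ribonuclease that attracts macrophages, was at 1047, 1185 and 1712 in IL-4 + ACs and 199, 181 and 193 in ACs (log2 fold change 2.75 ± 0.19, adjusted p = 0.000203). Ear2 was at 205, 208 and 257 in IL-4 + ACs and 62.4, 74.7 and 26.8 in ACs (log2 fold change 2.12 ± 0.34, adjusted p = 0.0175). Ear6, the most counted of the group, was at 8092, 8689 and 8203 in IL-4 + ACs and 4667, 5441 and 3437 in ACs (log2 fold change 0.91 ± 0.16, adjusted p = 0.0298). Ear1 was at 64.3, 64.8 and 77.1 in IL-4 + ACs and 42.1, 50.6 and 59.0 in ACs (adjusted p = 0.615). Prg2, which encodes major basic protein, was at 197, 270.3 and 262 in IL-4 + ACs and 169.9, 214 and 155 in ACs and overlapped. Epx (eosinophil peroxidase) was low in both groups, at 8.69, 7.9 and 25.7 in IL-4 + ACs and 5.26, 9.34 and 21.4 in ACs, of which the values of replicate 3 lie close to 3 reads. The Ear genes are near copies of each other, and their single levels are uncertain, since reads that matched several were left out. When each library was omitted in turn, Rnase2a passed throughout. Ear2 did not pass without IL-4 + ACs 1 or 3 (adjusted p up to 0.0926) and Ear6 passed only without ACs 2 or 3 (adjusted p otherwise up to 0.0987).

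The 4 neighbouring chemokine genes Ccl2, Ccl7, Ccl12 and Ccl8, known for attracting monocytes, all rose. Of 11 CC chemokines tested, 6 rose and none fell by limma, edgeR and DESeq2, and the median was 1.01. Ccl2, the main attractant of CCR2-bearing monocytes, was at 7812, 6415 and 9612 in IL-4 + ACs and 2129, 1782 and 2831 in ACs (log2 fold change 1.83 ± 0.19, adjusted p = 0.00141). Ccl7 was at 681, 578 and 982 in IL-4 + ACs and 79.7, 92.6 and 182 in ACs (log2 fold change 2.71 ± 0.31, adjusted p = 0.00218). Ccl12 was lower in level, at 94.4, 59.0 and 77.1 in IL-4 + ACs and 15, 13.2 and 32.2 in ACs (log2 fold change 1.96 ± 0.39, adjusted p = 0.0492). Ccl8 was nearer to 0 in ACs, at 260.1, 292 and 221 in IL-4 + ACs and 11.3, 6.23 and 0 in ACs (log2 fold change 5.85 ± 0.76, adjusted p = 0.00565). The shallow ACs library held no read of it, and in the 4 deep libraries its log2 fold change was 4.88. Ccl8 is a ligand of CCR8 in mice and is known from Type 2 skin inflammation. These genes lie within 1 stretch of chromosome 11 (GRCm38), from 82035571 at the start of Ccl2 to 82116799 at the end of Ccl8. Ccl11 (eotaxin-1), a gene of the same cluster, had no read in ACs and at most 1.74 normalised reads with IL-4, and it was not tested. With 1 library left out at a time, Ccl2, Ccl7 and Ccl8 passed throughout. Ccl12 passed only without ACs 3 (adjusted p otherwise up to 0.297).

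Ccl24 (eotaxin-2), which attracts eosinophils through CCR3, was at 1017, 878 and 1099.9 in IL-4 + ACs and 226, 286 and 327 in ACs (log2 fold change 1.84 ± 0.17, adjusted p = 0.00065). Ccl4 was at 541, 428 and 581 in IL-4 + ACs and 280.5, 253 and 273 in ACs (log2 fold change 0.93 ± 0.16, adjusted p = 0.0254). Both were separated between the groups. Ccl17, a CCR4 ligand and a common readout of IL-4 in eosinophils, had too few reads to be tested, at 16.2, 15.3 and 10.3 in IL-4 + ACs and 7.52, 3.11 and 0 in ACs. Ccl22 was at 37.7, 42.7 and 25.7 in IL-4 + ACs and 9.02, 11.7 and 42.9 in ACs and did not pass (adjusted p = 0.612), and the ACs library of replicate 3 was as high as those with IL-4. Ccl6 and Ccl9, both abundant, lay above ACs in all libraries without passing (adjusted p = 0.555 and 0.0846). Of 8 CXC chemokines, 1 rose and none fell by limma and edgeR, and 2 rose by DESeq2, with a median of 0.17. This was Cxcl3, a ligand of the neutrophil receptor CXCR2, at 206, 202 and 226 in IL-4 + ACs and 44.4, 48.3 and 42.9 in ACs (log2 fold change 2.20 ± 0.20, adjusted p = 0.000554). Cxcl1 and Cxcl2, which act on the same receptor, overlapped between the groups. Cxcr2 itself was at 147, 135 and 108 in IL-4 + ACs and 28.6, 24.1 and 69.7 in ACs and came close to the threshold (adjusted p = 0.0667). In the 6 fits of 5 libraries, Ccl24 and Cxcl3 passed throughout. Ccl4 passed only without IL-4 + ACs 2 or ACs 3 (adjusted p otherwise up to 0.161).

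Of 16 cytokines tested, Il6 alone rose and none fell by limma, while edgeR and DESeq2 each gave 2 higher and 1 lower, and the median was 0.17. Il6, a cytokine of the acute phase and of T cell differentiation, was at 222, 202 and 396 in IL-4 + ACs and 30.1, 27.2 and 64.3 in ACs (log2 fold change 2.76 ± 0.36, adjusted p = 0.00567). Every IL-4 library lay more than 3 times above the highest ACs library. Il10, an anti-inflammatory cytokine, was at 6.37, 4.74 and 0 in IL-4 + ACs and 47.4, 38.1 and 53.6 in ACs, lower in all libraries without passing (adjusted p = 0.0722). In the 4 deep libraries it was past the threshold (log2 fold change -2.74). Il1rn, the IL-1 receptor antagonist, was at 2216, 2428 and 2421 in IL-4 + ACs and 1232, 1390.4 and 1801 in ACs with an adjusted p of 0.0808. Il4 transcripts of the cells themselves were at 105, 133 and 108 in IL-4 + ACs and 85.7, 96.5 and 123 in ACs and overlapped, as did those of Il5, the eosinophil growth factor. None of 28 cytokine and growth factor receptors passed by limma, while 1 rose by edgeR and 2 by DESeq2. By limma 6 of them had an unadjusted p under 0.05, as had 1030 of all 10669 transcripts tested. The median of the 28 was 0.27. While 8.45% of all transcripts tested lay above and 8.84% below, 10 of the 28 lay above ACs in all libraries and 1 below. Among these, Il6st, the shared subunit of the IL-6 receptor, was at 174, 166 and 247 in IL-4 + ACs and 57.9, 60.0 and 134 in ACs (adjusted p = 0.148), and Ifngr1 at 697, 765 and 478 in IL-4 + ACs and 412, 421 and 263 in ACs (adjusted p = 0.218). Over the fits without 1 library, Il6 passed throughout.

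Of 20 surface molecules used to tell Type 1 from Type 2 eosinophils, 2 rose and none fell by limma, 2 rose and 1 fell by edgeR and by DESeq2, and 4 rose and 4 fell in the 4 deep libraries. Their median was 0.16. Pdcd1lg2 (PD-L2), a ligand of PD-1, was at 104, 123 and 149 in IL-4 + ACs and 6.77, 10.9 and 0 in ACs (log2 fold change 4.79 ± 0.80, adjusted p = 0.02), with a log2 fold change of 3.57 in the 4 deep libraries. Slamf1 (CD150), a receptor that binds itself on neighbouring cells, was at 168, 143 and 200.5 in IL-4 + ACs and 18.8, 20.2 and 16.1 in ACs (log2 fold change 3.14 ± 0.26, adjusted p = 0.000396). Both were at or below 20.2 normalised reads in every ACs library. Cd274 (PD-L1), the other PD-1 ligand, was at 182, 187 and 339 in IL-4 + ACs and 137, 135 and 252 in ACs and overlapped. Cd101, a Type 2 eosinophil marker in the paper, was at 66.6, 66.4 and 61.7 in IL-4 + ACs and 26.3, 54.5 and 42.9 in ACs (adjusted p = 0.515). Cd69, an activation marker, was at 294, 226 and 195 in IL-4 + ACs and 148, 140.1 and 161 in ACs (adjusted p = 0.281), so that both lay above ACs in all libraries without passing. Cd34, a marker of progenitors, is named in the paper as a marker of Type 2 eosinophils. It was at 177, 165 and 169.6 in IL-4 + ACs and 318, 385 and 172 in ACs. Replicates 1 and 2 of ACs lay above all IL-4 libraries, and the groups overlapped through replicate 3 of ACs. Leaving out single libraries, Slamf1 passed throughout. Pdcd1lg2 did not pass without IL-4 + ACs 1, 2 or 3 (adjusted p up to 0.111).

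Some enzymes and transporters of arginine, lipid mediators and histamine rose. Of 15 tested members of the arginine and polyamine list, 2 rose and none fell by limma, and 2 rose and 1 fell by edgeR and by DESeq2, with a median of 0.27. In the 4 deep libraries 4 rose and 2 fell. Slc7a2, a carrier of cationic amino acids such as arginine, was at 2813, 2564 and 3577 in IL-4 + ACs and 1564, 1590.5 and 1587 in ACs (log2 fold change 0.90 ± 0.14, adjusted p = 0.0146). Acod1 makes itaconate, an antibacterial metabolite of activated macrophages, and was at 472, 432 and 653 in IL-4 + ACs and 165, 167 and 214 in ACs (log2 fold change 1.49 ± 0.20, adjusted p = 0.00583). Arg1 (arginase 1) was at 17121, 16986 and 23371 in IL-4 + ACs and 10730.4, 10074 and 17038 in ACs, and it did not pass (log2 fold change 0.63 ± 0.21 (SE), adjusted p = 0.349), with ACs replicate 3 inside the IL-4 range. In the 4 deep libraries its log2 fold change was 0.71, past the threshold. Nos2, the nitric oxide synthase of Type 1 activation, was at 105, 97.5 and 272 in IL-4 + ACs and 192, 257 and 188 in ACs and did not pass. When each library was omitted in turn, Acod1 passed throughout. Slc7a2 did not pass without IL-4 + ACs 1 or ACs 1 or 2 (adjusted p up to 0.0707).

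Of 13 lipid mediator and histamine enzymes, 3 rose and none fell by limma (4 and 0 by edgeR and by DESeq2), with a median of 0.22. Ptgs2 (cyclooxygenase 2), which makes the precursor of prostaglandins, was at 216, 211 and 134 in IL-4 + ACs and 69.2, 64.6 and 59.0 in ACs (log2 fold change 1.5 ± 0.24, adjusted p = 0.0147). Pla2g4a, the phospholipase that releases arachidonic acid for it, was at 1650.0, 1498 and 1203 in IL-4 + ACs and 748, 705 and 767 in ACs (log2 fold change 0.96 ± 0.14, adjusted p = 0.0124). These genes are neighbours on chromosome 1, 138741 bases apart. Hdc, which makes histamine, was at 487, 537 and 709 in IL-4 + ACs and 180.5, 164 and 273 in ACs (log2 fold change 1.5 ± 0.22, adjusted p = 0.0114). Alox15 and Alox5, the lipoxygenases of eosinophils, did not pass, with log2 fold changes of -0.14 and 0.08. Ltc4s, the synthase of leukotriene C4, was at 209, 219.7 and 314 in IL-4 + ACs and 94.0, 121 and 26.8 in ACs, above ACs in all libraries (adjusted p = 0.159). Ch25h, which makes 25-hydroxycholesterol, was at 133, 105 and 164 in IL-4 + ACs and 18.1, 11.7 and 21.4 in ACs (log2 fold change 2.92 ± 0.32, adjusted p = 0.00175). With 1 library left out at a time, Ch25h passed throughout. Ptgs2 passed only without IL-4 + ACs 3 or ACs 3 (adjusted p otherwise up to 0.0963), Pla2g4a passed only without IL-4 + ACs 3 or ACs 3 (adjusted p otherwise up to 0.08) and Hdc did not pass without ACs 1 (adjusted p = 0.0566).

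Protease inhibitors and growth factors changed in single members. Of 8 serpins tested, 2 rose and none fell by limma, edgeR and DESeq2, but 2 rose and 4 fell in the 4 deep libraries and with array weights, and the median was -0.49. Serpina3g, an inhibitor of cysteine proteases in lymphocytes, was at 109, 90.6 and 118 in IL-4 + ACs and 0.75, 2.34 and 0 in ACs (log2 fold change 5.88 ± 0.61, adjusted p = 0.00126). Serpinb1a, which inhibits neutrophil elastase, was at 638, 598 and 889 in IL-4 + ACs and 219.6, 245 and 279 in ACs (log2 fold change 1.5 ± 0.18, adjusted p = 0.00405). Serpina3f, Serpina3i and Serpina3n had too few reads to be tested, and they lie in the same gene cluster of similar sequence. Of 26 growth, matrix and repair factors, 2 rose and 2 fell by limma, 5 and 2 by edgeR, 6 and 2 by DESeq2 and 7 and 4 in the 4 deep libraries, with a median of 0.32. Igf1 (insulin-like growth factor 1) was at 246, 263 and 283 in IL-4 + ACs and 87.2, 85.6 and 134 in ACs (log2 fold change 1.39 ± 0.21, adjusted p = 0.0138). Hbegf, a ligand of the EGF receptor, was at 56.8, 57.4 and 61.7 in IL-4 + ACs and 16.5, 5.45 and 10.7 in ACs (log2 fold change 2.44 ± 0.44, adjusted p = 0.0312). F13a1 (coagulation factor XIII), itself counted among alternative activation genes, went the other way, at 113, 92.7 and 179.9 in IL-4 + ACs and 277, 361 and 413 in ACs (log2 fold change -1.48 ± 0.26, adjusted p = 0.0266). Mmp8, a collagenase of neutrophils, was at 60.8, 61.1 and 77.1 in IL-4 + ACs and 279.7, 294 and 402 in ACs (log2 fold change -2.27 ± 0.21, adjusted p = 0.00065). Vegfa was at 901, 906 and 1049 in IL-4 + ACs and 1564, 1731 and 965 in ACs and overlapped, and Fn1 (fibronectin) likewise. In the 6 fits of 5 libraries, Serpina3g, Serpinb1a and Mmp8 passed throughout. Igf1 passed only without ACs 3 (adjusted p otherwise up to 0.0707), Hbegf passed only without ACs 1 or 3 (adjusted p otherwise up to 0.188) and F13a1 passed only without IL-4 + ACs 3 (adjusted p otherwise up to 0.109).

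Over the whole list of 33 alternative activation genes, 26 were tested, of which 12 rose and F13a1 fell by limma (15 and 1 by edgeR and by DESeq2), and their median was 1.31 against -0.01 for all transcripts tested. Of the 26, 17 lay above ACs in all libraries and 2 below, against 8.45% and 8.84% of all transcripts tested. This list and others were compiled with the paper and earlier results of these data known, so the count is not independent evidence of its direction. Irf4, a transcription factor of this program, was at 18, 11.1 and 25.7 in IL-4 + ACs and 0.75, 4.67 and 5.36 in ACs (adjusted p = 0.433). Klf4, which acts with STAT6 in macrophages, was at 406, 391 and 359.8 in IL-4 + ACs and 119, 107 and 268 in ACs (adjusted p = 0.0929). Both lay above ACs in all libraries without passing, and Pparg, at 19.7, 15.8 and 15.4 in IL-4 + ACs and 3.76, 3.11 and 0 in ACs, was not tested. Batf3, a factor of dendritic cell development, was at 113, 135 and 123 in IL-4 + ACs and 49.6, 49.0 and 53.6 in ACs (log2 fold change 1.27 ± 0.21, adjusted p = 0.0203). Among 28 immediate early and activation factors, 4 rose and none fell by limma (median -0.01), namely Batf3, Cited2, Etv1 and Hivep3. By edgeR and by DESeq2 5 rose and none fell, but in the 4 deep libraries 5 rose and 6 fell, and with array weights 8 rose and 5 fell. Cited2, a restrainer of HIF-1 and NF-κB activity, was at 868, 980.1 and 560.2 in IL-4 + ACs and 283, 336 and 322 in ACs (log2 fold change 1.32 ± 0.21, adjusted p = 0.0147). Of 19 lineage factors, Cebpa fell and none rose by limma, edgeR and DESeq2 (median 0.05), and 1 rose and 2 fell in the 4 deep libraries. Cebpa, a factor of granulocyte and monocyte differentiation, was at 34.8, 25.3 and 41.1 in IL-4 + ACs and 88.7, 96.5 and 139 in ACs (log2 fold change -1.65 ± 0.29, adjusted p = 0.0273), while Gata1, the master factor of eosinophils, was at 962, 979.5 and 781 in IL-4 + ACs and 869, 940.4 and 815 in ACs and overlapped. Over the fits without 1 library, Batf3 passed only without IL-4 + ACs 3 or ACs 3 (adjusted p otherwise up to 0.164), Cited2 did not pass without IL-4 + ACs 1 or 2 or ACs 1 (adjusted p up to 0.0749) and Etv1 never passed (adjusted p 0.0618 to 0.221). Hivep3 passed only without IL-4 + ACs 3 or ACs 3 (adjusted p otherwise up to 0.24) and Cebpa passed only without IL-4 + ACs 3 (adjusted p otherwise up to 0.0987).

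Among genes of actin, adhesion and vesicles, the abundant Srgn, Cd53 and Cd9 rose. Of 20 tested members of the actin, adhesion and vesicle list, 5 rose and none fell by limma, edgeR and DESeq2, with a median of 0.07. Srgn (serglycin), the proteoglycan that holds granule contents, was at 61683, 61183 and 67097 in IL-4 + ACs and 36584, 38945 and 34838 in ACs (log2 fold change 0.78 ± 0.12, adjusted p = 0.0114). Cd53 and Cd9 are tetraspanins that organise membrane receptors. Cd53 was at 9083, 9035 and 11025 in IL-4 + ACs and 4487, 4986 and 5388 in ACs (log2 fold change 0.97 ± 0.13, adjusted p = 0.00589). Cd9 was at 2369, 2626 and 2369.5 in IL-4 + ACs and 1122, 1329.7 and 1329.6 in ACs (log2 fold change 0.96 ± 0.12, adjusted p = 0.00534). Limk1, a kinase of actin turnover, was at 76.5, 68.0 and 87.4 in IL-4 + ACs and 20.3, 23.4 and 16.1 in ACs (log2 fold change 1.91 ± 0.30, adjusted p = 0.0147), and Nsf, which takes apart SNARE complexes after fusion, at 474, 432 and 571 in IL-4 + ACs and 256, 243 and 311 in ACs (log2 fold change 0.86 ± 0.17, adjusted p = 0.0452). The tetraspanin Cd63 of granule membranes did not pass, with values of 4853, 5222 and 4955 in IL-4 + ACs and 4765, 4926 and 4530.4 in ACs. Of 15 Fc and inhibitory receptors, Fcgr2b rose and Fcgr4 fell, with a median of 0.05. Fcgr2b, the inhibitory IgG receptor, was at 2375, 2411 and 2596 in IL-4 + ACs and 1515, 1555 and 1394 in ACs (log2 fold change 0.73 ± 0.11, adjusted p = 0.0147). Fcgr4, an activating IgG receptor 42373 bases away, was at 73.0, 62.2 and 103 in IL-4 + ACs and 253, 349.6 and 306 in ACs (log2 fold change -1.94 ± 0.23, adjusted p = 0.00321). Leaving out single libraries, Cd53, Cd9 and Fcgr4 passed throughout. Srgn did not pass without IL-4 + ACs 1 or 2 (adjusted p up to 0.0727) and Limk1 did not pass without IL-4 + ACs 1 or 2 or ACs 1 (adjusted p up to 0.104). Nsf passed only without ACs 3 (adjusted p otherwise up to 0.22) and Fcgr2b did not pass without IL-4 + ACs 1 or 2 or ACs 1 (adjusted p up to 0.0904).

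Among transcripts past the threshold and outside the lists, the largest rise was that of Ddx4 (VASA), a helicase known from germ cells. It was at 460.0, 473 and 596 in IL-4 + ACs and 2.26, 3.11 and 16.1 in ACs (log2 fold change 6.37 ± 0.54, adjusted p = 0.000396). By edgeR its log2 fold change was 7.06. Car12, a carbonic anhydrase of the cell surface, was at 93.9, 83.8 and 108 in IL-4 + ACs and 6.02, 6.23 and 16.1 in ACs (log2 fold change 3.33 ± 0.42, adjusted p = 0.00484). Tmem26, a membrane protein, had 3 reads over the ACs libraries and 203 over those with IL-4. Its ratio of reads was 49.6 (95% exact interval 16.7 to 243). Cyp26b1, which degrades retinoic acid, was at 39.4, 46.9 and 66.8 in IL-4 + ACs and 5.26, 2.34 and 0 in ACs (log2 fold change 4.21 ± 0.77, adjusted p = 0.0324), and its log2 fold change was 3.27 in the 4 deep libraries. These transcripts were close to 0 in ACs, so their fitted log2 fold changes depend on the added count of 1. Rnf19b, a ubiquitin ligase picked after its values were seen, rose from a substantial level, at 1744, 1736 and 1794 in IL-4 + ACs and 499, 441 and 579 in ACs (log2 fold change 1.80 ± 0.14, adjusted p = 0.000267). Both groups were tight and far apart. When each library was omitted in turn, Ddx4, Car12 and Rnf19b passed throughout. Tmem26 did not pass without IL-4 + ACs 1 or 2 (adjusted p up to 0.128) and Cyp26b1 passed only without ACs 1 or 3 (adjusted p otherwise up to 0.215).

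Among the transcripts that fell were Lcn2, the formyl peptide receptors and receptors of tissue macrophages. Lcn2 (lipocalin 2), which sequesters bacterial iron carriers, showed the largest fall among the transcripts past the threshold. It was at 188, 179.7 and 272 in IL-4 + ACs and 1641, 1801 and 1930.1 in ACs (log2 fold change -3.09 ± 0.18, adjusted p = 9.56e-05). All IL-4 libraries lay far below all ACs libraries. Fpr1, a receptor of formylated bacterial peptides, was at 57.4, 58.5 and 87.4 in IL-4 + ACs and 311, 286 and 439.6 in ACs (log2 fold change -2.33 ± 0.24, adjusted p = 0.00121). Its neighbour Fpr2, which also binds lipoxin and annexin A1, was at 75.3, 54.3 and 123 in IL-4 + ACs and 470.0, 343 and 676 in ACs (log2 fold change -2.57 ± 0.32, adjusted p = 0.0044). Of 15 chemoattractant receptors tested, these 2 fell and none rose by limma (median -0.04), and 1 rose and 3 fell by edgeR and by DESeq2. Ccr3, the eotaxin receptor of eosinophils, was at 3146, 3290.1 and 2863 in IL-4 + ACs and 3642, 3703 and 2976 in ACs and overlapped. Prtn3 (proteinase 3) was at 15.1, 12.1 and 5.14 in IL-4 + ACs and 54.1, 83.3 and 80.4 in ACs (log2 fold change -2.73 ± 0.45, adjusted p = 0.0178), and the haemoglobin scavenger Hp (haptoglobin) at 155, 147 and 97.7 in IL-4 + ACs and 441, 538 and 386 in ACs (log2 fold change -1.78 ± 0.22, adjusted p = 0.00392). With 1 library left out at a time, Lcn2, Fpr1, Fpr2 and Hp passed throughout. Prtn3 did not pass without ACs 1, 2 or 3 (adjusted p up to 0.127).

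Marco, a scavenger receptor of tissue macrophages that binds bacteria and dead cells, was at 159, 129 and 190.2 in IL-4 + ACs and 795, 833 and 1265 in ACs (log2 fold change -2.58 ± 0.22, adjusted p = 0.000396). Vsig4, a complement receptor of the same cells, was at 388, 341 and 473 in IL-4 + ACs and 694, 1055 and 1458 in ACs (log2 fold change -1.36 ± 0.25, adjusted p = 0.0312). Of the 15 macrophage markers, all were tested, these 2 fell and none rose by limma, and the median was -0.25. By edgeR 1 rose and 2 fell, and by DESeq2 1 rose and 3 fell. The remaining markers did not pass, and several were abundant in both groups. Lyz2 was at 6129, 5415 and 10218 in IL-4 + ACs and 7697, 8897 and 11688 in ACs, C1qa at 798, 823 and 1306 in IL-4 + ACs and 1129, 1011 and 863 in ACs and Csf1r at 1366, 1337 and 1578 in IL-4 + ACs and 1539, 1779 and 1539 in ACs, all with overlap. Mertk, a receptor for apoptotic cells, was at 68.4, 79.6 and 139 in IL-4 + ACs and 181, 132 and 332 in ACs, with replicate 3 of IL-4 + ACs just above the lowest ACs library (adjusted p = 0.322). Timd4, another such receptor of resident peritoneal macrophages, lay above ACs in all libraries, at 196, 195 and 195 in IL-4 + ACs and 81.2, 86.4 and 150.1 in ACs (adjusted p = 0.174), and Gata6, their defining factor, overlapped at 121, 105 and 123 in IL-4 + ACs and 74.4, 106 and 182 in ACs. The part of macrophage content in the fall of Marco, Vsig4 and the other transcripts was not tested. Of the 11 neutrophil markers, 5 were tested and Mmp8 fell, with 1 higher by edgeR and by DESeq2, while S100a8, S100a9, Ly6g, Camp, Ltf, Ngp, Elane and Mpo were at 59.0 normalised reads or fewer in every library. In the 6 fits of 5 libraries, Marco passed throughout. Vsig4 passed only without ACs 1 (adjusted p otherwise up to 0.121).

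Further falls concerned the phagocyte transcripts Gpnmb, Pilra and Thbd. Gpnmb, a glycoprotein of lysosome-rich macrophages, was at 162, 161 and 242 in IL-4 + ACs and 623, 645 and 724 in ACs (log2 fold change -1.84 ± 0.19, adjusted p = 0.00118). Pilra, an inhibitory receptor, was at 18.5, 16.9 and 30.8 in IL-4 + ACs and 79.7, 73.2 and 134 in ACs (log2 fold change -2.06 ± 0.35, adjusted p = 0.0234). Thbd (thrombomodulin), an anticoagulant receptor, was at 31.9, 29.5 and 20.6 in IL-4 + ACs and 82.0, 95.8 and 118 in ACs (log2 fold change -1.82 ± 0.29, adjusted p = 0.0147). Ltbp1, which tethers latent TGF-β, Cgnl1, a junction protein, and Nipal1, a magnesium transporter, also fell, with log2 fold changes of -1.91, -1.91 and -2.01 (adjusted p = 0.0266, 0.038 and 0.0326). Transcripts past the threshold were also ranked by absolute change in normalised reads. Among them the largest falls after Lcn2 were those of Prdx6, an antioxidant peroxiredoxin, and Mcemp1, a mast cell and myeloid membrane protein. Prdx6 was at 1486, 1453 and 1583 in IL-4 + ACs and 2314, 2726 and 2922 in ACs (log2 fold change -0.81 ± 0.13, adjusted p = 0.0147). Mcemp1 was at 958, 822 and 1085 in IL-4 + ACs and 1684, 1706 and 2702 in ACs (log2 fold change -1.06 ± 0.19, adjusted p = 0.0326). Over the fits without 1 library, Gpnmb passed throughout. Pilra passed only without IL-4 + ACs 3 (adjusted p otherwise up to 0.0904) and Thbd did not pass without ACs 1 or 2 (adjusted p up to 0.0809). Ltbp1 passed only without IL-4 + ACs 3 or ACs 1 (adjusted p otherwise up to 0.129). Cgnl1 passed only without ACs 1 (otherwise up to 0.182) and Nipal1 only without IL-4 + ACs 3 (otherwise up to 0.231). Prdx6 did not pass without IL-4 + ACs 1 or 2 or ACs 2 (adjusted p up to 0.0904) and Mcemp1 passed only without ACs 3 (adjusted p otherwise up to 0.11).

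**Figure D3:**
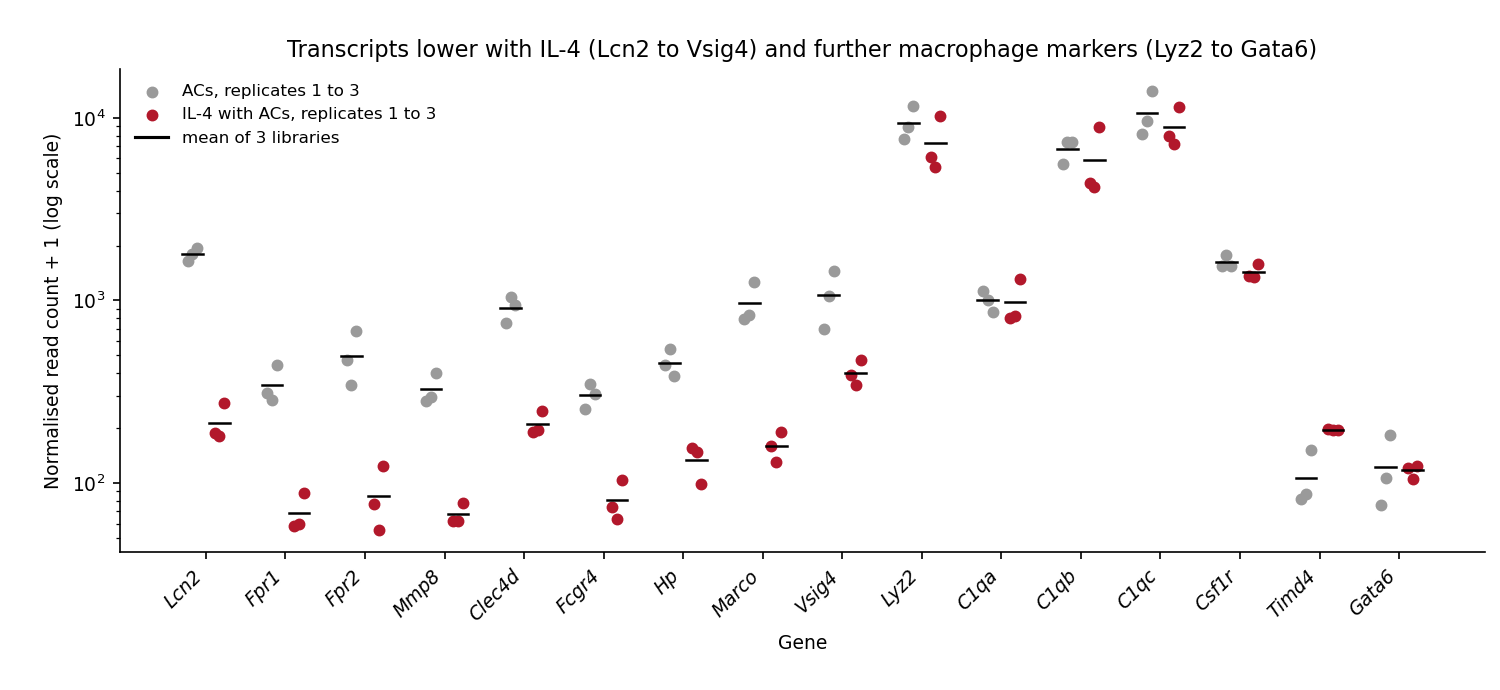
Normalised read counts plus 1 (log scale) of 9 transcripts that fell (Lcn2 to Vsig4) and 7 further macrophage markers that did not pass the test (Lyz2 to Gata6), in ACs (grey) and IL-4 + ACs (red), with the mean of each group as a bar. The red points of the 9 lie below the grey ones, whereas those of Lyz2, C1qa, C1qb, C1qc, Csf1r and Gata6 overlap with them and those of Timd4 lie above.

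The remaining lists held few or no calls. Over all 10669 transcripts tested, 1030 had an unadjusted p under 0.05 by limma. Of 36 interferon-stimulated genes none passed by limma, 4 had an unadjusted p under 0.05, and 2 fell by edgeR and by DESeq2. Their median was -0.03. Ifit3, Ifitm1 and Ifitm2 lay below ACs in all libraries (adjusted p = 0.0808, 0.174 and 0.103). These were 3 of the 36, with none above, where 8.84% of all transcripts tested lay below and 8.45% above. The 3 are thus near the share of all transcripts. Of 8 MHC class II genes none passed by limma, edgeR or DESeq2 and 1 had an unadjusted p under 0.05 (median 0.29), and H2-Aa was at 2367, 1814 and 3212 in IL-4 + ACs and 1828, 1615 and 2080.2 in ACs. By limma none passed of 13 NF-κB subunits and inhibitors (median 0.05), 14 BCL2 family members (0.09), 15 cholesterol genes (-0.23), 20 proteasome subunits (0.14) and 6 metallothionein and zinc transport genes (0.10). An unadjusted p under 0.05 was found for 4, 4, 0, 1 and 2 members of these lists in the same order. By edgeR and by DESeq2 alike, 1 member of the BCL2 list and 2 of the metallothionein and zinc list rose. Of 27 glycolysis and low-oxygen genes none passed by limma, 3 had an unadjusted p under 0.05 and 1 fell by edgeR and by DESeq2 (median -0.16), but 9 fell in the 4 deep libraries. Aldoa, for example, was at 19005, 17873 and 18535 in IL-4 + ACs and 23820.5, 39115 and 17349.5 in ACs, and replicate 3 of ACs lay just below the lowest IL-4 library. Of 22 engulfment and lipid efflux genes 1 rose and none fell by limma (median -0.04), 2 rose by edgeR, and 2 rose and 1 fell by DESeq2. The one by limma was Dab2, an endocytic adaptor, at 799.5, 722 and 1002 in IL-4 + ACs and 467, 415 and 515 in ACs (log2 fold change 0.84 ± 0.16, adjusted p = 0.0407), and the apoptotic-cell receptors Axl and Cd36 overlapped between the groups. Leaving out single libraries, Dab2 passed only without ACs 3 (adjusted p otherwise up to 0.178).

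Several of the changed transcripts were neighbours in the genome. Within 200000 bases of each other lay 20 pairs among the 116, formed by 31 transcripts, and both members moved in the same direction in 16 pairs. The pairs are not independent, since Ccl2, Ccl7, Ccl12 and Ccl8 all pair among themselves, and most of the 116 rose. Chil3 and Chil4 were 33926 bases apart on chromosome 3, Clec10a and Mgl2 18647 bases on chromosome 11, and Fpr1 and Fpr2 3884 bases on chromosome 17. Ms4a4c and Ms4a6c, membrane proteins of monocytes, both fell and were 42120 bases apart on chromosome 19. Fcgr2b and Fcgr4, Clec4a2 with each of Clec4a1 and Clec4d, and Mcemp1 and Cd209e moved in opposite directions. No comparison with pairs of unchanged transcripts was made, and several of these pairs are near copies whose reads may be mixed.

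The IL-4 effect was then set against the IFN-γ effect, each measured with apoptotic cells present and against its own ACs libraries. The 2 effects differed in 615 transcripts (5.82% of 10561 tested) with a higher and 775 (7.34%) with a lower value for IL-4 (limma on 12 libraries, difference of the 2 contrasts). After rescaling to a common upper quartile these counts were 719 and 682. Of the 79 transcripts that rose with IL-4, 48 had an effect significantly above that of IFN-γ, 6 below it and 25 did not differ past the threshold. Of the 37 that fell, the IL-4 effect was lower in 29, higher in Ifitm6 and not past the threshold in 7. The IL-4 libraries enter both tests, so a difference in the direction of the IL-4 effect is favoured by how these transcripts were chosen. IFN-γ and IL-4 were used in separate experiments, so cytokine and experiment cannot be told apart in this difference.

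IFN-γ + ACs raised 26 and lowered 15 of the 79, where it raised 9.55% and lowered 9.11% of all transcripts tested, and it raised 13 and lowered 8 of the 37. Serpina3g, Slamf1 and Ch25h rose with both cytokines, and their effects did not differ past the threshold. The IFN-γ log2 fold changes were 5.06, 2.96 and 2.56, and the differences (IL-4 minus IFN-γ) were 0.82 ± 0.63, 0.18 ± 0.36 and 0.36 ± 0.43 (SE), with adjusted p of 0.456, 0.807 and 0.654. The intervals of the first and the last are wide. Ccl2 also rose with both (difference 0.33 ± 0.29, adjusted p = 0.508). Acod1, Slc7a2, Ptgs2, Cd9, Clic4 and Fgl2 rose with IL-4 but significantly more with IFN-γ, Acod1 by a log2 fold change of 4.10 with IFN-γ (adjusted p of the difference = 5.71e-06). Among the IL-4 fits without 1 library, Fgl2 never passed (adjusted p 0.0659 to 0.243). Clic4 did not pass without IL-4 + ACs 1 or ACs 2 (adjusted p up to 0.0587).

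Cd209e had no read in the 6 libraries of the IFN-γ comparison, so that no IFN-γ fold change can be given and the difference rests on the IL-4 libraries. Ddx4 was at 0, 0 and 4.1 in IFN-γ + ACs and 2.44, 0 and 0 in its ACs libraries, near or at 0 in all 6, and here too the difference rests on the IL-4 libraries. Mapt, the microtubule protein tau, rose with IL-4, at 251, 237 and 257 in IL-4 + ACs and 139.9, 109 and 96.5 in ACs (log2 fold change 1.12 ± 0.19, adjusted p = 0.0234), and fell with IFN-γ, at 7.91, 18.3 and 0 against 182, 221 and 210.4. This gave a difference of 6.32 ± 0.96 (adjusted p = 0.000324). In the fits without 1 library, the rise of Mapt with IL-4 passed only without ACs 1 or 3 (adjusted p otherwise up to 0.128). Mrc1 also moved in opposite directions, since it fell with IFN-γ by a log2 fold change of -2.82 (adjusted p of the difference = 7.89e-05). Retnla, Clec10a and Il6 had IFN-γ log2 fold changes of 0.02, -0.02 and -0.09, and the difference passed the threshold for each (adjusted p = 0.0203, 1.97e-05 and 0.000534). Chil3 rose with both, by 1.03 with IFN-γ, and rose more with IL-4 (difference 1.54 ± 0.27, adjusted p = 0.00108).

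Among the transcripts that fell, Marco showed the largest difference. It was at 2824, 3676 and 2965 in IFN-γ + ACs and 873, 628 and 619.8 in the corresponding ACs, a rise opposed to its fall with IL-4 (difference -4.74 ± 0.28, adjusted p = 3.07e-08). Fpr2 rose from 492, 414 and 363 to 1316, 1782 and 1900.2 with IFN-γ (difference -4.54 ± 0.38, adjusted p = 1.33e-06), and Nipal1 from 104, 86.3 and 64.4 to 199, 292 and 246 (difference -3.55 ± 0.37, adjusted p = 8.24e-06). Hp fell with both cytokines (difference -0.01 ± 0.28, adjusted p = 0.994), and Ifitm6 fell more with IFN-γ. Lcn2 fell with IL-4 but was at 9539, 11147 and 5664 with IFN-γ against 7669, 8591 and 5926, without passing. The ACs libraries of the 2 experiments differed in level for many of these transcripts, as Lcn2 averaged 1791 next to IL-4 and 7395 next to IFN-γ.

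**Figure D4:**
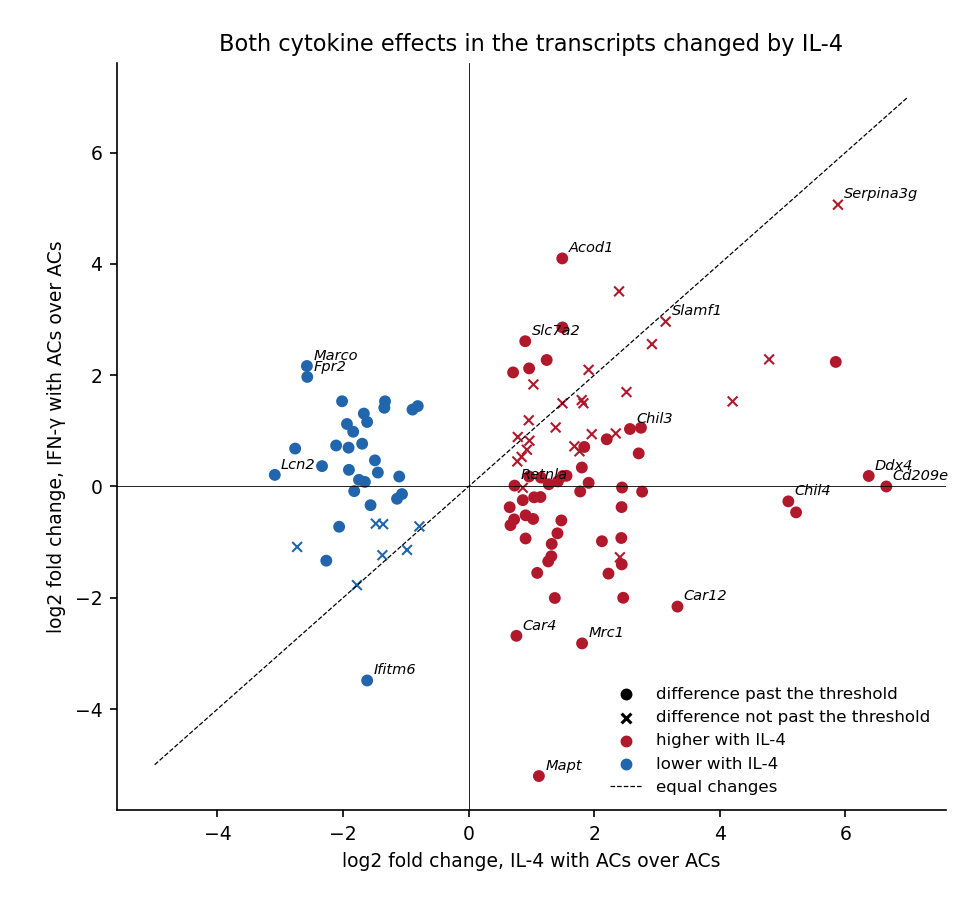
Log2 fold change of IFN-γ + ACs over its ACs libraries (vertical axis) against that of IL-4 + ACs over its ACs libraries (horizontal axis), with 1 point for each of the 116 transcripts changed by IL-4. Filled points mark differences between the effects past the threshold, crosses those that were not, and the dashed line equal effects. Serpina3g and Slamf1 lie near the line, Marco and Fpr2 at the upper left and Mapt and Mrc1 at the lower right.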

How the data were processed

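RNA of eosinophils was sequenced by CEL-Seq2, which reads transcript 3′ ends, and 6 libraries were compared here, with 6 more (IFN-γ + ACs and its ACs) for contrast. The deposited values are signal made by the authors as normalised read counts per gene, that is, reads divided by DESeq2 size factors. Per the submitters' processing notes, FastQC 0.11.5, Trim Galore, cutadapt 1.10, TopHat2 2.1.0, Bowtie2 2.2.6, HTSeq 0.6.1 and DESeq2 1.26.0 were used with GRCm38. By the study's methods, TopHat2 allowed a few mismatches and HTSeq counted uniquely mapped reads alone, in union mode. Any use of molecular identifiers is not given in the sources used here. Gene IDs were matched to symbols for 54409 of 54446 genes.

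From these values, log2(normalised read count + 1) was tested with limma 3.58.1 (trend) in R 4.3.3 for genes with a mean of at least 10. Calls were made at 1.5-fold or more with p, adjusted after Benjamini and Hochberg, below 0.05. Errors of fold changes are standard errors. Each value was a whole number of reads within 0.1 read, so reads were recovered and also tested with edgeR 4.0.16 (quasi-likelihood) and DESeq2 1.42.0. For 100% of values this held, and edgeR called 127 genes higher and 85 lower, DESeq2 128 and 81. The limma step was tested on simulated data, and the edgeR and DESeq2 steps were not. The difference between the IL-4 and IFN-γ effects was fitted on 12 libraries. Other alternatives were a pseudocount of 5, other filters, upper-quartile scaling, array weights, a replicate block, all 18 libraries in 1 fit and left-out libraries. Group, pathway and marker lists were chosen with the paper and earlier results of these data known. Named genes are list members and the largest changes among transcripts past the threshold. These were the 15 largest log2 rises and 15 largest falls where the higher group averaged 50 or more. They also include the 5 largest rises and 5 largest falls in mean normalised count, and the 3 largest differences from IFN-γ in each direction. Others are named where they illustrate a count. Read intervals are exact and cover counting error only. Promoter sequences came from RefSeq.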

Additional observations from a re-analysis of the deposited data

How the results depend on the processing

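Against 79 transcripts higher and 37 lower, the counts were 125 and 83 with no filter on low values, 389 and 356 with array weights, 119 and 101 with all 18 libraries in 1 fit, 127 and 85 by edgeR, 128 and 81 by DESeq2 and 345 and 311 with both shallow libraries left out. Leaving out 1 library gave 31 to 95 higher and 16 to 51 lower. The cause of these shifts was not tested, beyond fewer libraries in the last fits. A pseudocount of 5, a mean of at least 50, upper-quartile scaling and no fold threshold gave 82 and 40, 72 and 38, 77 and 38, and 79 and 37. None of the 116 transcripts changed direction under any of these alternatives in which it was tested. A mean of at least 50 left 103 of the 116 in the test, all still past the threshold. With no filter, upper-quartile scaling and 18 libraries, 113, 114 and 106 stayed past the threshold. With the replicate number as a block, the counts were 45 higher and 29 lower, and 69 of the 116 stayed past the threshold. The numbers were not taken to pair the samples, since the labels name no mouse. Deviations from the group means of libraries with the same number correlated at 0.0208, 0.000526 and 0.00724. Shallow replicate 3 enters each group mean, so these values cannot decide whether the numbers pair the samples. For the difference between the IL-4 and IFN-γ effects, the block gave 575 higher and 771 lower, the fit without shallow libraries 806 and 1066, and single left-out libraries 428 to 651 and 589 to 908. The shallow replicate 3 limits low transcripts most, since there 1 read stands for 5.14 or 5.36 normalised reads.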
